A study of Mus musculus with 24 samples.

Results

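The genes described here are 7 Kruppel-like factors, Klf2, Klf3, Klf4, Klf6, Klf7, Klf9 and Klf13. They were measured by every probe set of the array that the platform's annotation pairs with 1 of these genes and no other, which gave 29 of the 45101 probe sets, and these 7 genes are among 18193 that have a probe set of their own. Klf3 and Klf9 had 7 probe sets each, Klf6 had 5, Klf7 had 4, Klf13 had 3, Klf4 had 2 and Klf2 had 1. A probe set is a group of short probes to 1 transcript, and the probe set of a gene with the largest SD over the arrays is called its leading probe set.

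RNA came from splenic B cells of NOD mice (NOD/ShiLtJ, a strain that develops autoimmune diabetes) and of B6 mice (C57BL/6/J). All mice were female and 7 weeks old, and each pool held 8 mice. Cells carrying CD3ε or CD11b were depleted, and 6 subsets were then sorted by flow cytometry on B220, IgM, CD23, CD93, CD24 and the complement receptors CD21 and CD35: the transitional subsets T1, T2FO and T3, the mature follicular subset FO, the marginal zone precursor T2MZ and the marginal zone subset MZ. With 2 independent pools for each strain there were 12 NOD arrays and 12 B6 arrays, 2 for each strain and subset. The number of arrays limits the precision. In the main fits, p-values over the subsets rest on the spread between the 2 pools of each strain, taken from the replicate numbers. All others rest on the spread between the 2 arrays of a group, shared over the 12 groups. Both spreads are moderated over all probe sets. In B6 the spread between arrays includes a difference in the 5′ control described below, so it is not only a spread between pools.

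Each deposited value is a log2 value centred on the probe set's own median over the 24 arrays. A value of 1 therefore lies 1 doubling above that median, 0 stands for no particular level of RNA, and values of different probe sets cannot be ranked against each other. In sorted cells measured in bulk, fewer cells of a type and less RNA per cell cannot be told apart.

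Some arrays stood apart from their labels or from the rest. The NOD arrays labelled T1 had Cr2, which encodes the complement receptor of the sort, at 1.24 and 1.16, and Cd93, the marker of immature B cells, at -2.04 and -2.14, whereas the B6 arrays labelled T1 had Cr2 at -1.83 and -1.62 and Cd93 at 3.14 and 2.98. The NOD subset names are therefore used only as labels. In each B6 subset, 1 array was far lower than its partner in the 5′ beta-actin control: replicate 2 of T1, T2FO, T3 and T2MZ and replicate 1 of FO and MZ lay between -4.04 and -3.27, the other 6 B6 arrays between -1.36 and 0.47, and the NOD arrays between -0.54 and 0.79. The B cell markers had list medians between -0.08 and 0.24 on the NOD arrays and between -0.65 and 0.32 on the B6 arrays. The myeloid list was highest on the NOD arrays labelled FO, at 1.86 and 1.25, and on B6 MZ replicate 2, at 1.37. The NK cell list was highest on B6 T2FO replicate 2, at 1.99, and the T cell list on NOD T2MZ replicate 2, at 1.04.

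Kruppel-like factors are zinc finger transcription factors that bind CACCC and GC-rich boxes. Several are abundant in resting lymphocytes and are lost on activation: KLF2 keeps mouse T and B cells quiescent and controls their homing, and KLF4 slows the cell cycle of B cells downstream of FOXO factors. KLF3 represses transcription through the corepressor CtBP, often from CACCC boxes also used by activating family members, and has been tied to marginal zone B cell fate in mice. KLF6 and KLF4 are also early response genes that many cells induce on stress. KLF9 is induced by glucocorticoids, KLF13 was described as an activator of a late chemokine gene in T cells, and KLF7 is best known from neurons.

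The upstream sequences of 4 of the genes are shown because Klf2 and Klf4 are the members best known in B cell quiescence, and because Klf3 and Klf13 had the probe sets that passed a test. They are RefSeq sequences of the 250 bases before the annotated start in build GRCm38.p6, written 5′ to 3′ on the gene's strand. Capitals mark CACCC on either strand (written CACCC or GGGTG) and matches to the consensus site of MEF2 factors, which activate Klf2 in endothelial cells.
Klf2 (chr8:72318812-72319061, plus strand): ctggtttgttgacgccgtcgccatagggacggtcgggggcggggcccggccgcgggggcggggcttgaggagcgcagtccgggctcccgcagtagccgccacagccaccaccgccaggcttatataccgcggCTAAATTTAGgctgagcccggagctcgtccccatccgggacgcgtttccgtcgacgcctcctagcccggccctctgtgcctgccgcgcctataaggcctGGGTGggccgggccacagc
Klf4 (chr4:55532476-55532725, minus strand): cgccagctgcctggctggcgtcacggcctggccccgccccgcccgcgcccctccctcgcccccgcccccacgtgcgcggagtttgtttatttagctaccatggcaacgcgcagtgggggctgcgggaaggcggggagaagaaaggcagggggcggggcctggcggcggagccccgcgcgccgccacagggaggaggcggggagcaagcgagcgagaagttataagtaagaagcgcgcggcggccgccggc
Klf3 (chr5:64803271-64803520, plus strand): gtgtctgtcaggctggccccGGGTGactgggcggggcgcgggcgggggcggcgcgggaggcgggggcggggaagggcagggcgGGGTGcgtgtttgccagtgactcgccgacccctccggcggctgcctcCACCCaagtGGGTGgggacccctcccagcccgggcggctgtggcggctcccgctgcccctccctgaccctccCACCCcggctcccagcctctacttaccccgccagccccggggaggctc
Klf13 (chr7:63938916-63939165, minus strand): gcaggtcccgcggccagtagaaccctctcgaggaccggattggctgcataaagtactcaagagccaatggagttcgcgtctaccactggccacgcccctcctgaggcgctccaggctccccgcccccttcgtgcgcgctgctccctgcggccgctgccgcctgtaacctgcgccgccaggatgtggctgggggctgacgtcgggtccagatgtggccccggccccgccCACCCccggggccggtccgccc

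All 7 genes had a window of this kind. That of Klf7 (chr1:64121390-64121639) lies inside the annotated gene (chr1:64029448-64122345), so it is not upstream of the outermost start. Counting both strands and overlapping matches, the box that the family itself binds, CACCC, occurred 5 times in the window of Klf3, 3 times in that of Klf7 and once each in those of Klf2, Klf9 and Klf13, and was not among the letters of the Klf4 or Klf6 windows. It occurs in 52.0% of the 32851 windows of this length, so 5 of 7 genes is no unusual share. The GC box GGGCGG, which can share bases with it, was in the windows of 6 of 7 genes, all but Klf9, against 32.7% of all windows. It occurred 6 times in Klf3, 4 times in Klf4, 3 times in Klf13, 2 times in Klf2 and once each in Klf6 and Klf7. The MEF2 consensus had 1 match, CTAAATTTAG, from -118 to -109 before Klf2, and no match in the windows of the other 6 genes. In all, 959 of the 32851 windows, 2.92%, hold a match. These matches are descriptions of the letters in the windows.

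The Kruppel-like factor probe sets varied more between replicate arrays than most. Their median SD within groups was 0.52, against 0.24 over all 45037 probe sets that are not controls, and the median range of their 12 group means was 1.41, against 0.60. Within the NOD groups the median SD was 0.32, against 0.19 for all probe sets, and within the B6 groups it was 0.65, against 0.25. Klf4 had the widest replicate spread, with an SD within groups of 2.11. No member separated all 12 NOD arrays from all 12 B6 arrays, while 2.40% of all probe sets did.

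Klf2, measured by 1448890_at, was lowest on the NOD arrays labelled T1, at -0.69 and -3.15, and next lowest on the B6 MZ arrays, at -0.67 and -1.92. On the other 10 NOD arrays it lay between -0.72 and 0.67, and on the other 10 B6 arrays between -0.78 and 0.63. The low value on NOD T1 replicate 2 was thus 1 array of 24, and its partner lay within the range of the other arrays. The B6 MZ arrays were both below both B6 FO arrays, which had -0.44 and -0.12. The differences were -1.01 ± 0.66 (SE) for B6 MZ minus FO, with an adjusted p of 1.00 in limma, and 2.12 ± 0.66 for NOD FO minus T1, with an adjusted p of 0.22. NOD minus B6 in T1 was -2.16 ± 0.66, with an adjusted p of 0.070. Klf2 passed no test. In order of the group means, no group of Klf2 was set apart from the next by its 2 arrays except B6 T2MZ, at a mean of -0.31, from B6 MZ, at a mean of -1.29.

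Klf4 varied most, and between replicates. Its leading probe set 1417394_at was at -5.72 on NOD T1 replicate 2 and at -5.12 on NOD T2MZ replicate 2, while replicate 1 of the same groups was at 0.15 and 0.34. The other 8 NOD arrays lay between -1.74 and 0.48, and the B6 arrays between -2.20 and 1.35. On the B6 arrays the values fell into a high and a low array in every subset, for example -0.60 and 1.35 in T1 and 1.34 and -2.20 in MZ. The second probe set, 1417395_at, followed it with a Pearson r of 0.86 over the 24 arrays, and its lowest values, -3.21 and -3.21, were on the same 2 NOD arrays. No neighbouring groups of Klf4 in the order of the 12 means were separated by their arrays. The strain difference over the subsets was -1.03 ± 0.89 in 1417394_at and 0.45 ± 0.75 in 1417395_at, of opposite sign, with adjusted p-values of 0.67 and 0.86.

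Klf6 showed the same division of the arrays. In 1418280_at the lowest value was -2.72 on NOD T1 replicate 2, and NOD T2MZ replicate 2 was at -1.78. The other 10 NOD arrays lay between -0.93 and 1.32, with the highest on the 2 arrays labelled T2FO, at 0.72 and 1.32. In B6 the 2 arrays of a subset were far apart, at -1.90 and 0.66 in T1, at -2.12 and 0.29 in T2FO and at 1.15 and -1.91 in MZ. The 5 probe sets of Klf6 did not agree on a strain difference. Over the subsets, 1427742_a_at had a NOD minus B6 difference of 1.22 ± 0.32 with an adjusted p of 0.14, while 1447448_s_at, 1433508_at and 1459718_x_at had differences of -0.98, -0.83 and -0.90 with adjusted p-values between 0.12 and 0.24.

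Klf9 was close together on the NOD arrays and split on the B6 arrays. Its leading probe set 1428288_at lay between -0.75 and 0.70 on the 12 NOD arrays, with a median of 0.00. On the B6 arrays it had -0.52 and 1.94 in T1, -0.35 and 1.88 in T2FO, -0.50 and 1.67 in T3, 0.86 and -1.59 in FO, -0.75 and 2.19 in T2MZ, and 2.71 and -0.65 in MZ. The higher array of each B6 pair was the one that was low in the 5′ beta-actin control. The probe sets 1436763_a_at, 1436952_at and 1452723_at of the same gene lay between -0.35 and 0.69 on all 24 arrays and showed no such split.

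**Figure D1:**
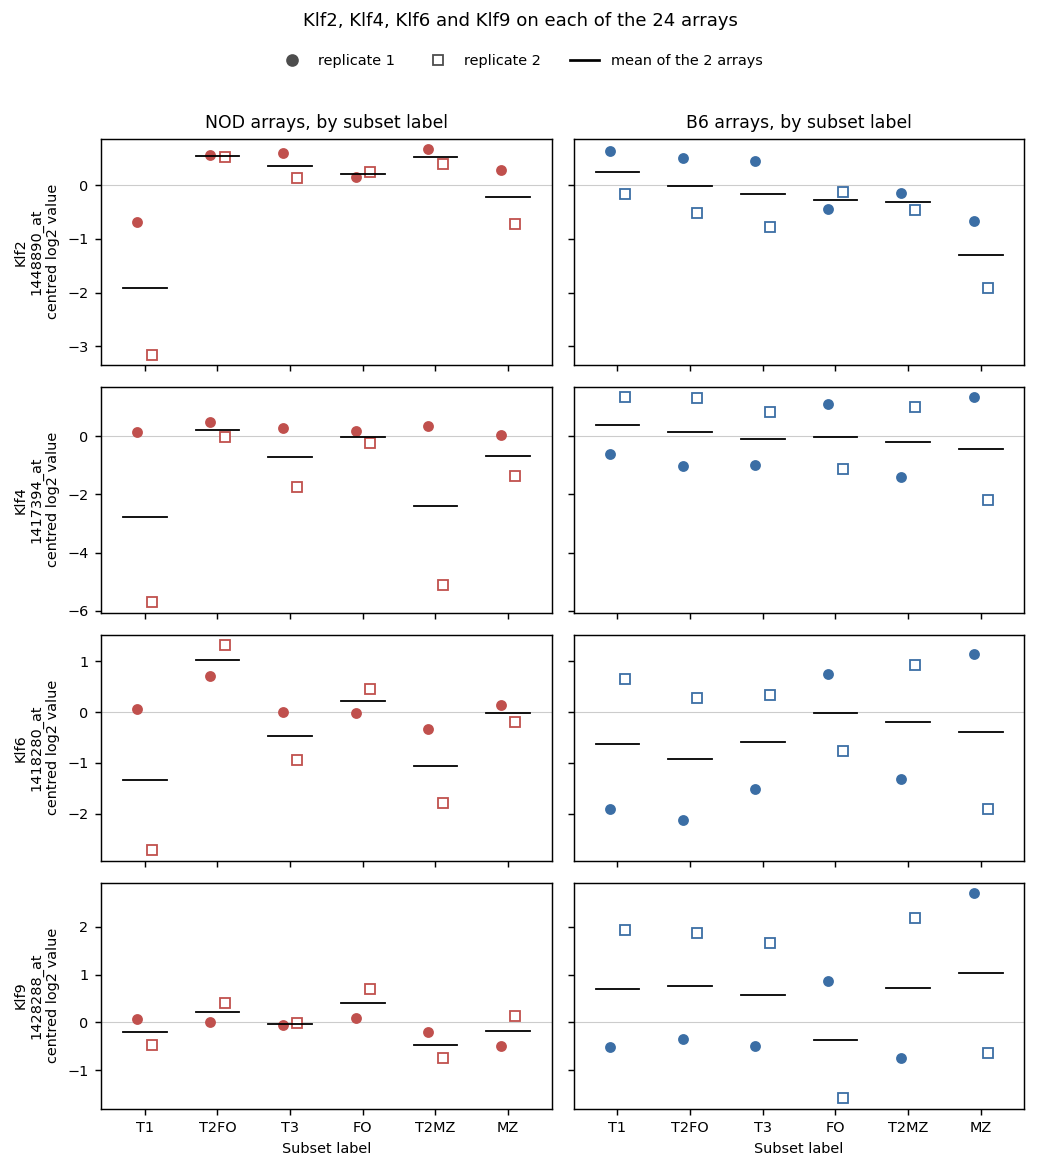
Centred log2 value (vertical axis) of the leading probe sets of Klf2, Klf4, Klf6 and Klf9 on each array by subset label (horizontal axis), NOD left and B6 right. Circles are replicate 1, squares replicate 2 and lines the mean of the 2 arrays. Klf4 is at -5.72 and -5.12 on replicate 2 of NOD T1 and T2MZ, and the 2 arrays of each B6 subset are far apart in Klf4, Klf6 and Klf9.

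Klf3 rose in NOD against B6 in the groups labelled T2MZ and MZ. In its leading probe set 1429360_at, the NOD arrays labelled T2MZ had 1.01 and 1.05, against -0.33 and -0.89 on the B6 T2MZ arrays. The NOD arrays labelled MZ had 0.22 and 0.19, against -1.51 and -1.32 on the B6 MZ arrays. Neither pair of groups overlapped. The difference was 1.64 ± 0.34 in T2MZ (limma, Benjamini-Hochberg adjusted p = 0.0160) and 1.63 ± 0.34 in MZ (adjusted p = 0.0176). A second Klf3 probe set, 1421604_a_at, had 0.90 and 0.82 on the NOD T2MZ arrays, against -0.34 and -0.59 on the B6 T2MZ arrays, a difference of 1.33 ± 0.29 (limma, adjusted p = 0.0216). Its difference in MZ was 0.95 ± 0.29, with an adjusted p of 0.12.

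Because the NOD labels are in doubt, all NOD arrays were also set beside these B6 arrays. The lowest NOD value of 1429360_at under any label was -0.21, which is above both B6 T2MZ arrays and both B6 MZ arrays. For 1421604_a_at this did not hold: its lowest NOD value, on T1 replicate 2, was -0.35, which is below B6 T2MZ replicate 1 at -0.34. The gate transcript Cd93 was at -1.40 and -1.62 on the NOD arrays labelled T2MZ, against 0.46 and 1.14 on the B6 T2MZ arrays. Fcer2a, which encodes CD23, was at 1.51 and 1.77 on these NOD arrays, against -0.20 and 0.20. On the NOD arrays labelled MZ, Fcer2a was at 1.02 and 0.92, against -1.85 and -1.21 on the B6 MZ arrays. Cr2 overlapped in MZ, at 0.87 and 0.80 in NOD and at 1.23 and 0.49 in B6. The part of unlike cells under 1 label in the Klf3 differences was not tested.

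The probe sets 1429360_at and 1421604_a_at were the 2 of 29 members called higher in NOD in T2MZ, where 1.71% of all probe sets were called higher and 2.73% in either direction. The calls were not stable to the loss of an array, in fits that assume the lone array of a group to vary like the other groups. In T2MZ, 1429360_at kept a call only without B6 replicate 1 (adjusted p = 0.0367), and its adjusted p was 0.11 without NOD replicate 1, 0.12 without NOD replicate 2 and 0.13 without B6 replicate 2. In MZ it lost the call without any of the 4 arrays, with adjusted p-values between 0.080 and 0.13. Without the 6 B6 arrays low in the 5′ control the differences of 1429360_at were 1.35 in T2MZ and 1.53 in MZ. That leaves 1 array in each B6 group, and the only spread is that of the NOD arrays, so no test is given. For 1421604_a_at in T2MZ every such loss ended the call, with adjusted p-values between 0.077 and 0.15.

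The other Klf3 probe sets were divided. In T2MZ the differences of 1441200_at and 1431630_a_at were 1.36 ± 0.43 and 0.81 ± 0.33, with adjusted p-values of 0.13 and 0.30. The probe set 1454666_at differed by 0.04 ± 0.34 in T2MZ and by 0.09 ± 0.34 in MZ. In FO its difference was of the opposite sign to that of 1429360_at in T2MZ. It was at -0.55 and -0.88 on the NOD arrays labelled FO, against 1.17 and 0.05 on the B6 FO arrays. That difference was -1.33 ± 0.34 with an adjusted p of 0.051 in limma. Over the subsets its difference was -0.56 ± 0.11, with an adjusted p of 0.080 in limma. With the B6 FO and MZ replicate numbers crossed before averaging, the SE was 0.21 and the adjusted p 0.47 in limma. Over the 24 arrays its Pearson r with 1431630_a_at was -0.33, while 1429360_at and 1421604_a_at correlated at 0.88.

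Among the B6 subsets, MZ had the lowest mean in 3 of the 7 Klf3 probe sets, including the leading one. In the other 4 the lowest mean was that of T2MZ (1441200_at), T3 (1442920_at) or FO (1431630_a_at and 1458487_at). The leading probe set had -1.51 and -1.32 on the B6 MZ arrays, against -0.30 and -0.31 on the B6 FO arrays, and 1421604_a_at had -1.05 and -0.82, against 0.26 and 0.47. In 1454666_at the B6 MZ arrays had -0.34 and -1.15, against 1.17 and 0.05. The MZ minus FO differences of these 3 probe sets were -1.11, -1.30 and -1.35. None passed after adjustment in limma (adjusted p = 0.30, 0.067 and 0.13). With the replicate number as a block and the B6 FO and MZ numbers crossed, a pairing chosen after seeing the data, all 3 passed (limma, adjusted p = 0.0170, 0.00159 and 0.00835). The pairing was read from how these same arrays deviated, so its p-values support no call. Of all probe sets, 1031 were called in that fit, against 254 without a block. Klf9 1428288_at was also called there, in the other direction, by 1.39 ± 0.31 (limma, adjusted p = 0.0306). With a random pool block only 1421604_a_at of the members passed (limma, adjusted p = 0.0273), and 363 of all probe sets were called. In NOD, the difference between the arrays labelled MZ and FO was 0.32 ± 0.34 in 1429360_at. The test of the difference between the strains gave 1.43 ± 0.48 with an adjusted p of 0.72 in limma for this probe set. The gate transcript Fcer2a had means of 0.97 and 0.79 on the NOD arrays labelled MZ and FO. In B6 MZ and FO its means were -1.53 and 1.70. With the NOD labels in doubt, the test cannot decide whether strain affects the MZ and FO contrast.

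Klf13 was the other member with calls. Its probe set 1436316_at had 0.01 and -0.03 on the NOD arrays labelled MZ, against -0.65 and -1.33 on the B6 MZ arrays. The difference of 0.99 ± 0.24 was called (limma, adjusted p = 0.0397). With 1429360_at of Klf3 this made 2 of 29 members called higher in NOD in MZ, where 1.58% of all probe sets were called higher and 2.52% in either direction. The lowest NOD value of 1436316_at under any label was -0.43, which is above both B6 MZ arrays. The gate transcript Fcer2a was at 1.02 and 0.92 on the NOD arrays labelled MZ, against -1.85 and -1.21 on the B6 MZ arrays. The part of unlike cells under this label in the Klf13 difference was not tested. B6 MZ replicate 2, the lowest array, was also the one with a myeloid list median of 1.37, an NK cell list median of 0.99 and a T cell list median of 0.88, and the part of RNA from these cells was not tested. The difference was 0.65 with an adjusted p of 0.35 without B6 MZ replicate 2, and the call was also lost without NOD MZ replicate 1 (0.23) or NOD MZ replicate 2 (0.19).

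The same probe set fell in B6 FO against B6 T1. It had -0.78 and -1.03 on the B6 FO arrays, against 0.52 and 0.31 on the B6 T1 arrays, while the B6 MZ arrays had -0.65 and -1.33 and the other B6 arrays lay between -0.25 and 0.15. The FO minus T1 difference was -1.32 ± 0.24 (limma, adjusted p = 0.0125). It was the only 1 of 29 members called in this comparison, with 0.548% of all probe sets called lower and 1.01% in either direction. Its 6 B6 group means spanned 1.41 (limma F test, adjusted p = 0.0163), again the only member called, with 1.41% of all probe sets called. The FO minus T1 call was lost without B6 T1 replicate 1 (adjusted p = 0.18) and without B6 FO replicate 2 (0.14), and the F test call without the same 2 arrays (0.067 and 0.057). The difference between the 2 arrays of a B6 subset that differed in the 5′ control averaged -0.01 ± 0.40 (SD over 6 subsets) in this probe set.

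The leading probe set of Klf13, 1432543_a_at, behaved otherwise. It lay between -0.08 and 0.72 on the NOD arrays, with a median of 0.32, and between -1.67 and 0.18 on the B6 arrays, with a median of -0.92. The ranges overlapped only narrowly. The strain difference over the subsets was 1.08 ± 0.17 with an adjusted p of 0.059 in limma. With the B6 FO and MZ replicate numbers crossed before averaging, its SE was 0.37 and its adjusted p 0.42 in limma. The arrays low in the 5′ control were below their partners in all 6 B6 subsets, by 1.00 ± 0.30 (SD) on average. Without them the difference over the subsets was 0.58. The 6 B6 arrays then left are 1 of each subset and deviated together, so they are in effect 1 set and give no test between the strains. The third probe set, 1456030_at, differed in the other direction, by -0.37 ± 0.10 with an adjusted p of 0.16, and correlated with 1432543_a_at at -0.72 over the 24 arrays.

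**Figure D2:**
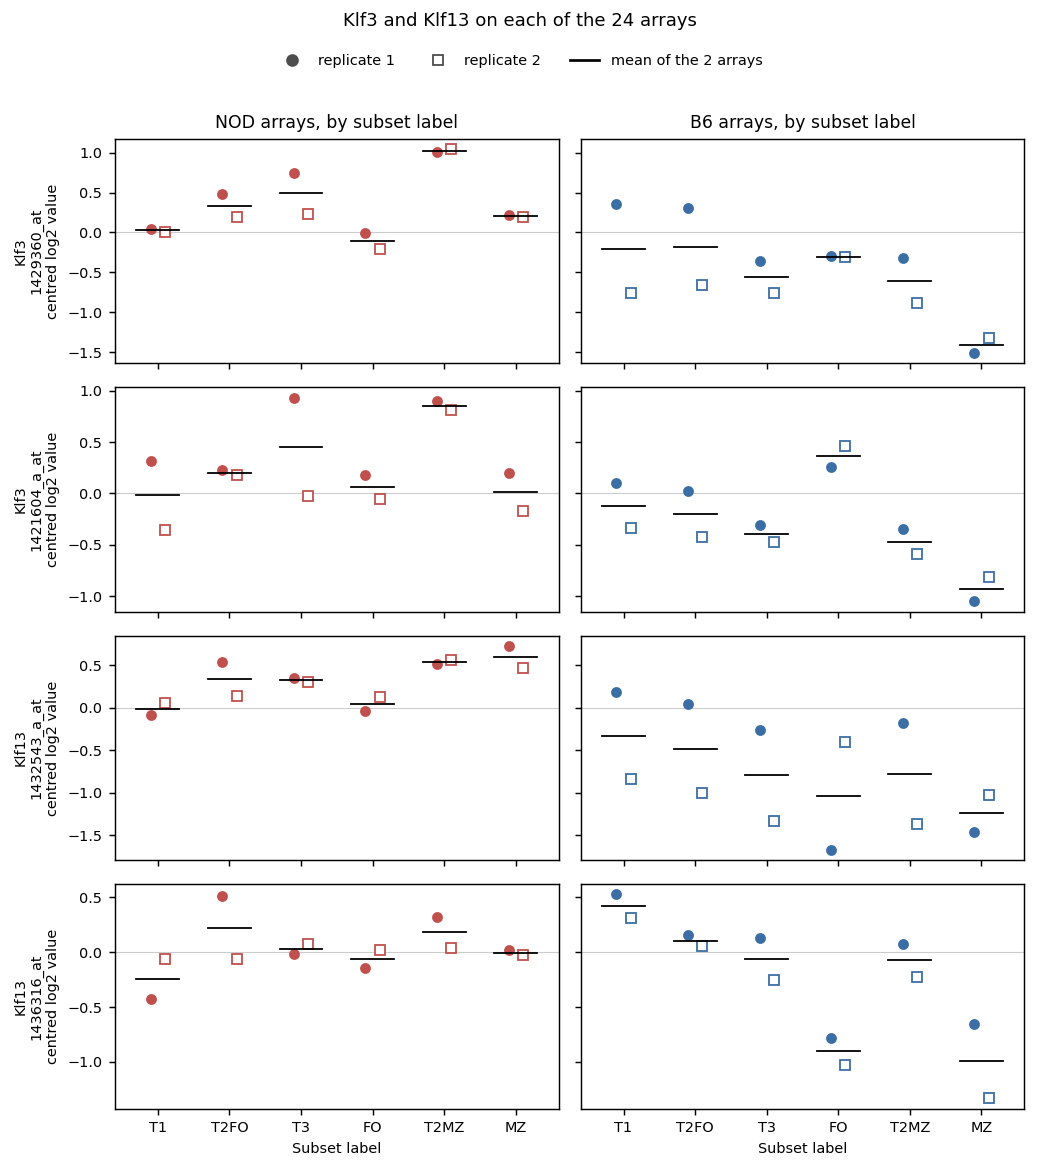
Centred log2 value (vertical axis) of 2 Klf3 and 2 Klf13 probe sets on each array by subset label (horizontal axis), NOD left and B6 right. Circles are replicate 1, squares replicate 2 and lines their mean. Klf3 is above 0 on all NOD arrays labelled T2MZ and below -0.3 on all B6 T2MZ and MZ arrays, and 1436316_at of Klf13 is between -1.33 and -0.65 on the B6 FO and MZ arrays.

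Klf7 had a narrower range on the NOD arrays than on the B6 arrays. Its leading probe set 1449439_at lay between -0.90 and 0.23 on the NOD arrays, with a median of -0.42, and between -0.58 and 1.44 on the B6 arrays, with a median of 0.52. NOD minus B6 over the subsets was -0.96 ± 0.17 with an adjusted p of 0.072 in limma. With the B6 FO and MZ numbers crossed before averaging, the SE was 0.41 and the adjusted p 0.54 in limma. The B6 arrays low in the 5′ control were above their partners in all 6 subsets, by 1.09 ± 0.41 (SD). Without those 6 arrays the difference was -0.41, again with 1 B6 set left and no test. The other 3 probe sets of Klf7 had differences of -0.72, -0.34 and 0.19, with adjusted p-values of 0.33, 0.27 and 0.59.

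Over the 6 subsets, with the 2 pools of each strain as the replicates, 0 of 29 members passed the test between NOD and B6, while 3.02% of all probe sets did. At an unadjusted p under 0.05 there were 12 of 29 members, against 19.0% of all probe sets. The pools were taken from the replicate numbers, and in B6 the arrays of FO and MZ deviated against the same-numbered arrays of the other subsets. With the B6 FO and MZ numbers crossed before averaging, 0 of 29 members and 59 probe sets, 0.131%, were called in limma, with 6 members and 11.6% of all probe sets at an unadjusted p under 0.05. The differences over the subsets are the same in both groupings, but their SEs and calls rest on the grouping. The median difference of the members was 0.05, against -0.03 over all probe sets. Within single subsets, 0 members passed in T1, T2FO, T3 and FO, where 6.31%, 2.58%, 1.72% and 2.88% of all probe sets were called in limma. At an unadjusted p under 0.05 there were 5, 3, 5 and 5 of 29 members, against 10.3% to 17.6% of all probe sets. Among the 6 NOD groups 0 members passed the F test, with 1.77% of all probe sets called. At an unadjusted p under 0.05 there was 1 member, Klf2, against 7.60% of all probe sets. Between MZ and FO, 0 members passed in B6, in NOD and in the difference of the strains, and 0.564%, 0.122% and 0.124% of all probe sets did. At an unadjusted p under 0.05 there were 3, 0 and 3 members, against 6.04%, 2.39% and 3.93% of all probe sets. In NOD FO against T1, 0 passed, with 1.14% of all probe sets called, and 2 had an unadjusted p under 0.05, against 7.33%.

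**Figure D3:**
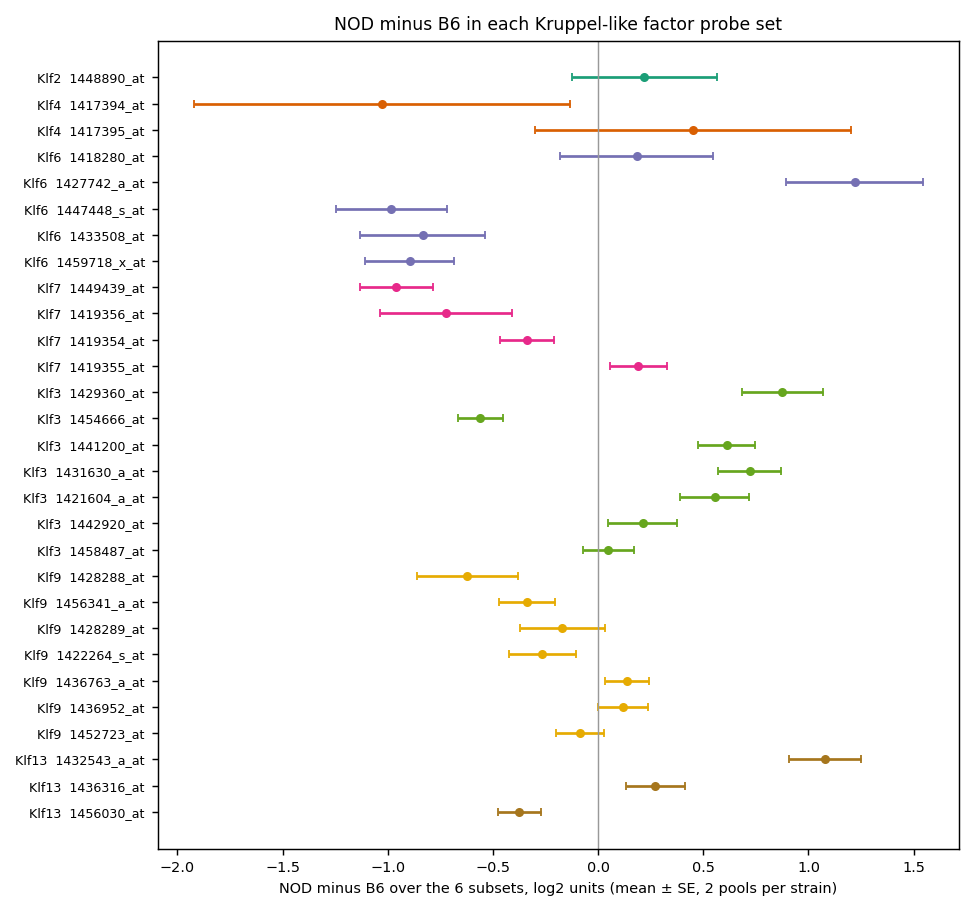
NOD minus B6 over the 6 subsets in log2 units (horizontal axis) for each of the 29 probe sets (vertical axis), coloured by gene. Points are differences of the pool means and bars 1 SE, with 2 pools for each strain, taken from the replicate numbers as given. The bars depend on that grouping. With the B6 FO and MZ numbers crossed, the SE of Klf9 1428288_at goes from 0.24 to 0.94 and that of Klf6 1427742_a_at from 0.32 to 0.28. Probe sets of Klf3, Klf4, Klf6, Klf7, Klf9 and Klf13 lie on both sides of 0.

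The sign of the strain difference turned with the arrays used in Klf9. With all arrays, 1428288_at had a difference of -0.62 ± 0.24 (limma, adjusted p = 0.28) and 1428289_at of -0.17 ± 0.20 (adjusted p = 0.78). With the B6 FO and MZ numbers crossed before averaging, the SEs were 0.94 and 0.73. Without the 6 B6 arrays low in the 5′ control, which leaves 1 B6 set and no test, the differences were 0.68 and 0.83. With the 5′ minus 3′ beta-actin value of each array as a covariate they were 1.23 and 1.24. No direction between the strains is therefore given for Klf9.

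The array pairs of the same strain and subset show how widely this reached. In B6, the array low in the 5′ control was above its partner in all 6 subsets in 13 of 29 members, against 13.6% of all probe sets. It was below its partner in all 6 in 5 members, against 15.4%. The 13 were both Klf4 probe sets, 4 of Klf6, 2 of Klf7, 4 of Klf9 and 1 of Klf3. The mean gap was 2.38 ± 0.61 (SD over 6 subsets) in Klf4 1417394_at, 2.28 ± 0.54 in Klf6 1418280_at and 2.60 ± 0.46 in Klf9 1428288_at. The 5 were 1432543_a_at of Klf13 and 4 probe sets of Klf3, among them 1421604_a_at with a gap of -0.29 ± 0.12.

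In NOD, replicate 2 was below replicate 1 in all 6 subsets in 3 of 29 members, against 7.23% of all probe sets. These were both Klf4 probe sets and 1421604_a_at of Klf3. Replicate 2 was above replicate 1 in all 6 in 0 members, against 4.52%. The Klf4 gap of 1417394_at averaged -2.62 ± 2.44 (SD over 6 subsets) and ranged from -5.87 to -0.42. Klf7 1449439_at, by comparison, had gaps between -0.04 and 0.32.

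**Figure D4:**
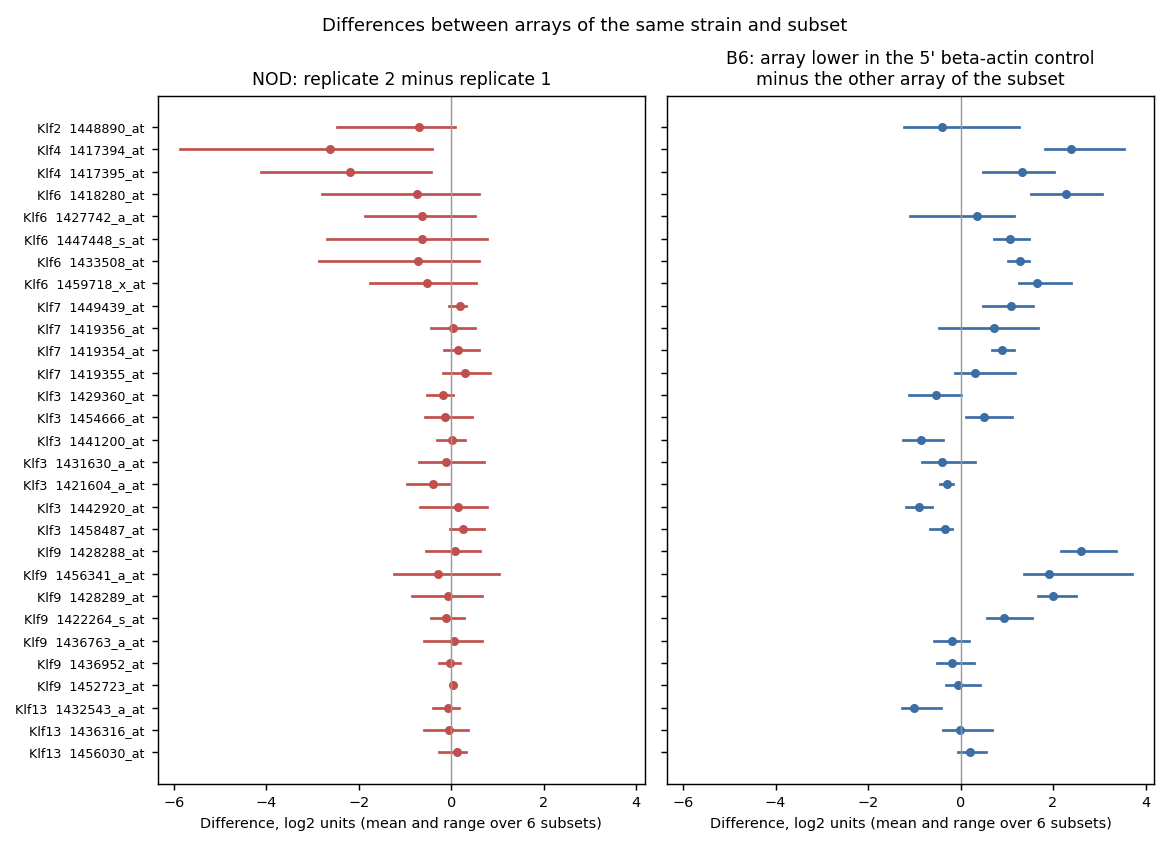
Difference between the 2 arrays of a strain and subset in log2 units (horizontal axis) for each of the 29 probe sets (vertical axis), as replicate 2 minus replicate 1 in NOD (left) and as the array lower in the 5′ beta-actin control minus the other in B6 (right). Points are means and lines ranges over 6 subsets. Klf4 reaches -5.87 in NOD, and Klf4, Klf6 and Klf9 have leading probe sets above 1.5 in every B6 subset.

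The median of 12 genes of the immediate early response and heat shock was lowest on the 2 arrays where Klf4 was lowest. It was -3.04 on NOD T1 replicate 2 and -2.01 on NOD T2MZ replicate 2, and lay between -0.96 and 1.18 on the other 22 arrays. Fos, a subunit of the AP-1 factor, was at -0.14 and -5.06 on the NOD arrays labelled T1 and at 0.15 and -3.78 on those labelled T2MZ. Dusp1, a phosphatase of MAP kinases, was at 1.55 and -3.54 and at 1.92 and -2.81 on the same arrays. Not all genes of the list did so. The heat shock gene Hspa1a was low on both replicates, at -3.91 and -3.92 in T1 and at -3.86 and -3.97 in T2MZ. Hspa1b likewise was at -5.30 and -3.28 and at -3.96 and -2.52. Junb and Ier2 were at -0.20 and 0.69 on NOD T2MZ replicate 2. Klf2 was low on NOD T1 replicate 2, at -3.15, and not on NOD T2MZ replicate 2, at 0.39. The part of these values in the Klf4, Klf6 and Klf2 results was not tested. Of the 12 genes, 1 was called lower in NOD over the subsets, the heat shock gene Hspa1b, by -1.17 ± 0.16 (limma, adjusted p = 0.0431), against 3.02% of all probe sets called. With the B6 FO and MZ numbers crossed its adjusted p was 0.34. The list's median difference was -0.41, against -0.03 over all probe sets.

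**Figure D5:**
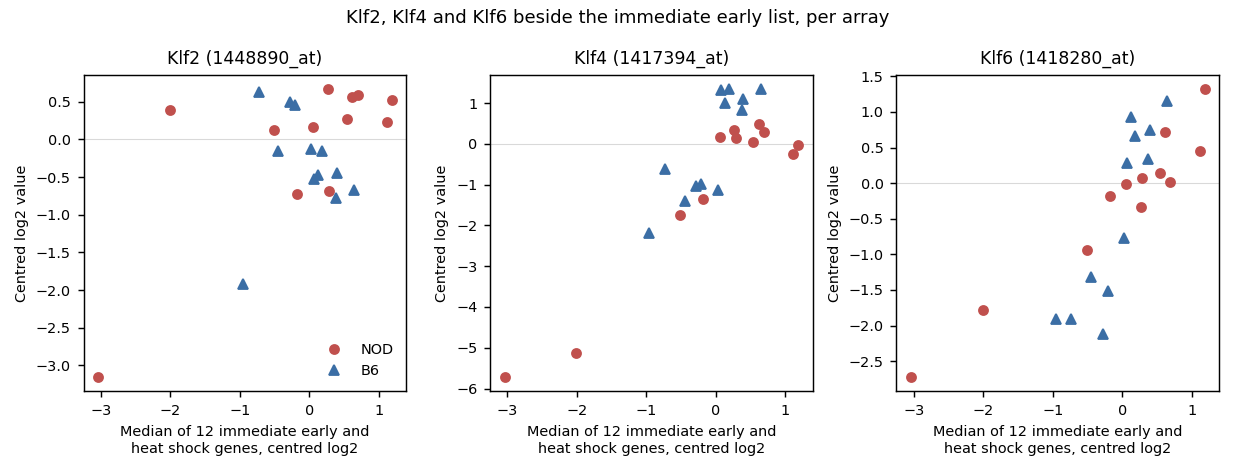
Centred log2 value of Klf2, Klf4 and Klf6 (vertical axes) against the median of 12 immediate early and heat shock genes (horizontal axes) on each of the 24 arrays, with NOD as circles and B6 as triangles. The 2 NOD arrays with list medians of -3.04 and -2.01 have Klf4 at -5.72 and -5.12.

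Across the arrays the leading probe sets of Klf4, Klf6 and Klf9 were high and low together. Pearson r between Klf4 and Klf6 was 0.80 over the 24 arrays, 0.90 over the NOD arrays and 0.91 over the B6 arrays. Between Klf4 and Klf9 it was 0.62, 0.59 and 0.91. Klf3 and Klf13 were at 0.85 over all arrays, 0.63 over the NOD arrays and 0.73 over the B6 arrays. Klf2 and Klf3 were at 0.50, 0.44 and 0.81. Klf7 and Klf13 were at -0.78 over all arrays, 0.29 over the NOD arrays and -0.70 over the B6 arrays. Klf7 went with Klf4 and Klf9 over the B6 arrays, at 0.84 and 0.89, but against them over the NOD arrays, at -0.59 and -0.53. Arrays of 1 strain share pools of mice and the amplification, so these are descriptions.

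Of the other Kruppel-like and Sp factors, 12 of 14 listed genes had a probe set of their own. In NOD against B6 over the subsets, 1 was called lower, Klf11, by -0.83 ± 0.09 (limma, adjusted p = 0.0300), against 3.02% of all probe sets, and the call was lost with the B6 FO and MZ numbers crossed (adjusted p = 0.64). In B6 FO against T1, 1 was called higher, Klf12, by 2.95 ± 0.54 (limma, adjusted p = 0.0156), against 1.01% of all probe sets. Both encode repressors, KLF11 being a target of TGF-beta signalling. Of the 12, 0 were called between B6 MZ and FO in limma, and 0 had an unadjusted p under 0.05. The list's median differences were 0.01, -0.20 and 0.00 in these 3 comparisons. These probe sets too were chosen by their SD, so the shares of all probe sets are not a like-for-like background.

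Genes of lymphocyte quiescence differed between the strains in single members. Of 17 measured, 2 were called higher in NOD over the subsets and 1 lower, against 3.02% of all probe sets called in either direction. Each gene was read by its probe set of largest SD, which includes the strain difference and raises the share called. The counts therefore do not show an excess over all probe sets. Cdkn1b, which encodes the cell cycle inhibitor p27, was higher by 3.46 ± 0.29 (limma, adjusted p = 0.0220), and Tob2, an antiproliferative factor, by 1.31 ± 0.15 (adjusted p = 0.0317). Foxo3, a forkhead factor of resting cells, was lower, with a difference of -0.81 ± 0.12 (limma, adjusted p = 0.0485). With the B6 FO and MZ numbers crossed all 3 calls were lost (adjusted p = 0.082, 0.13 and 0.16). In the groups labelled T2MZ, where Klf3 was called and the NOD label is in doubt, 3 were higher and 1 lower. Of all probe sets, 2.73% were called there in either direction. Besides Cdkn1b and Tob2, the cell cycle inhibitor gene Cdkn1a was higher by 1.34 ± 0.29 and Cdkn2c was lower, with a difference of -1.60 ± 0.37 (limma, adjusted p = 0.0209 and 0.0311). The median difference of the list was 0.18 over the subsets and 0.51 in T2MZ, against -0.03 and -0.02 over all probe sets. Of 17 genes, 0 were called in limma between B6 MZ and FO (4 at an unadjusted p under 0.05) or between B6 FO and T1 (2).

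Of 9 measured proliferation genes, 0 were called over the subsets (3 at an unadjusted p under 0.05) and 2 were called lower in NOD in T2MZ, where 2.73% of all probe sets were called. These were Mki67, the Ki-67 antigen of cycling cells, with a difference of -4.45 ± 0.85 (limma, adjusted p = 0.0101), and Cdk1, the mitotic kinase, with -2.39 ± 0.60 (adjusted p = 0.0488). The list's median difference there was -1.72, against -0.02 over all probe sets. Choosing probe sets by their SD again makes the share of all probe sets no like-for-like background. The NOD label T2MZ is in doubt, and the list medians differed widely between labels. They were -1.09 and -1.16 on these NOD arrays and 0.38 and 1.13 on the B6 T2MZ arrays. On the FO arrays they were 0.75 and 0.74 in NOD and -1.49 and -0.79 in B6.

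Of 6 measured homing genes linked to KLF2, 0 were called by limma in any of the 7 comparisons examined for the lists, and at an unadjusted p under 0.05 there were 5 in NOD FO against T1 and 0 to 2 in each of the others. On the B6 MZ arrays, where Klf2 was low, the median difference from FO was -0.53. The largest differences were those of Itgb7, a gut homing integrin chain, at -1.56 ± 0.77, and Ccr7, the lymph node homing receptor, at -1.31 ± 0.59 (adjusted p = 0.88 and 0.80). S1pr1, the receptor for egress from lymphoid organs and a direct target of KLF2 in mouse T cells, differed in the other direction there, by 0.28 ± 0.44 (adjusted p = 1.00). It was at 1.56 and 1.27 on the NOD arrays labelled T1, where Klf2 was at -0.69 and -3.15. These were its highest values on any array.

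The genes whose 12 group means were most like each member's were taken from 18169 genes. For Klf2 they were Vim, Trib2 and Pde2a, with Pearson r of 0.97, 0.96 and 0.95. For Klf4 they were Rgs1, St8sia4 and Hmgn5 (0.95, 0.95 and 0.93), and for Klf6 Bean1, Cdc42ep5 and 1700017L05Rik (0.92, 0.92 and 0.91). For Klf7 they were Rbms1, Ankrd50 and Prdx2, all at 0.95. For Klf3 they were Pias3, Carns1 and Gpd2 (0.96, 0.95 and 0.95). For Klf9 they were Dtl, Fbxo33 and Gsto1 (0.95, 0.92 and 0.91), and for Klf13 Hmgxb4, Pou2f2 and Vps72 (0.98, 0.97 and 0.97). With this many genes compared over 12 points, these values describe likeness only.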

How the data were processed

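Biotin-labelled RNA was hybridised to Affymetrix Mouse Genome 430 2.0 arrays after oligo(dT)-primed amplification in rounds, per the labels' protocols. Per the submitters' processing notes, the authors used RMA, and the deposited values were read as log2, the logarithm's base being unstated. Each probe set was centred on its median over the 24 arrays (largest median 5e-07 in size), so no level, background or filter on dim probe sets could be had. Of 45101 probe sets, 64 controls were left out. Groups came from the labels.

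All tests used limma 3.58.1 (lmFit and eBayes, R 4.3.3) over 45037 probe sets, with Benjamini-Hochberg adjustment and calls at an adjusted p under 0.05. Strains over the subsets were compared on 4 pool means, averaged by replicate number, other contrasts in a fit of 12 group means. The fits were tested on simulated data with independent arrays, which do not hold the shared deviations of the B6 arrays. Every member probe set is reported, and list genes by their probe set of largest SD, which favours probe sets that differ between groups. The members and lists were chosen with earlier results of these data known. Alternatives covered blocks, covariates, probe set choice and arrays left out. Promoter windows and gene coordinates are those of RefSeq, build GRCm38.p6.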

Additional observations from a re-analysis of the deposited data

How the results depend on the processing

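The counts are of the 29 members called, and the counts in brackets are of all 45037 probe sets. The called differences of Klf3 and Klf13 kept their sign under the alternatives run for them, while the F test has no direction. Blocks and the choice of probe sets could not change these differences. For the genes of the lists, only the crossed numbers over the subsets were run. Over the subsets, with 0 (1361) called, 11 (9159) were called with the 24 arrays taken as independent. That counts the arrays of 1 pool as replicates and supports no call. In that fit 6 (10487) were called with the 5′ minus 3′ beta-actin covariate and 9 (7769) without replicate 2 of NOD T1 and T2MZ. The covariate gave 3 (8352) in T1, 4 (4302) in T2FO and 5 (3594) in FO. Within B6 it gave 5 (2989) among the groups, 4 (696) in MZ against FO and 3 (2272) in FO against T1. Leaving out replicate 2 of NOD T1 and T2MZ gave 1 (835) in MZ and left 1 NOD array in T2MZ, where no call was kept. Leaving out the 6 B6 arrays low in the 5′ control leaves 1 array in each B6 group and no B6 spread. No counts are given for it. These 2 omissions were chosen after seeing the data. A fit of only the arrays compared gave 0 (18) in T2MZ, 0 (216) in MZ, 0 (79) among the B6 groups and 0 (0) in B6 FO against T1. It gave 1 (1447) among the NOD groups. Only probe sets with 1 gene gave 1 in FO (1042 of 34945), and a random pool block 1 (363) in B6 MZ against FO. Leaving out 1 array or pool gave 0 to 7 over the subsets (7 without B6 pool 1), 0 to 1 in each other comparison between or within strains, and 0 to 0 among the NOD groups, in NOD MZ against FO and in the difference of the strains.

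In B6, arrays with the same number deviated together within T1, T2MZ, T2FO and T3 (r from 0.73 to 0.87) and against those of FO and MZ (r from -0.62 to -0.37), while FO and MZ went together (r = 0.71). NOD pairs had r from -0.04 to 0.51. The B6 numbers as given thus did not mark 1 set of arrays over all 6 subsets, though the arrays of B6 fall into 2 sets with the FO and MZ numbers exchanged. The strain test over the subsets averaged by the numbers as given. The replicate block gave 1 member in T1 (Klf2), 1 in T2FO and 2 in FO, beside 3119, 1357 and 1597 of all probe sets. In B6 MZ against FO it gave 1 (Klf3 1421604_a_at, limma adjusted p = 0.0161), beside 415. The B6 FO and MZ numbers were also crossed, a choice made after seeing the data. The block then gave 5 among the B6 groups, 4 in B6 MZ against FO and 2 in B6 FO against T1. Of all probe sets, 3441, 1031 and 2549 were called in these fits.

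Array number limits these results, and signal over background is unknown for every member. The cause of each change was not tested.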
